A study of Mus musculus with 2 samples.

Results

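The 10 genes described here encode surface molecules through which antigen-presenting and phagocytic cells instruct lymphocytes or are themselves held in check: the costimulatory ligands Cd80, Cd86 and Icosl, the costimulatory receptor Cd40, the maturation molecule Cd83, the checkpoint molecules Cd274 and Havcr2, the early activation marker Cd69, and the pair Cd47 and Sirpa. They were taken as a list of gene names, and all 10 were found among the 19537 genes of the count matrices. The cells were microglia, sorted as CD11b+CD45int from the brains of mice without PARK7/DJ-1 (KO) and of their wildtype littermates (WT), 3 to 4 months old, 24 h after 1 intraperitoneal injection of lipopolysaccharide (LPS, 4 µg per g body weight), a component of bacterial membranes that sets off inflammation throughout the body. The KO mice were of the Park7 gene-trap strain B6;129P2-Park7 Gt(XE726)Byg/Mmucd and had been backcrossed to C57BL/6NCrl. Each genotype was represented by 1 Drop-seq library, again called KO or WT, and each library pooled 2 mice. Both groups had received LPS, and no untreated library was analysed here.

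T lymphocytes need a second signal beside antigen, and CD80, CD86 and ICOSL on the presenting cell supply it, while CD40 receives the help that T lymphocytes give back. PD-L1, the product of Cd274, and TIM-3, the product of Havcr2, act as brakes. CD47 is carried by most cells as a "do not eat me" signal and is read by SIRPα on phagocytes. Resident microglia carry SIRPα and CD86, and LPS and interferons are known to induce PD-L1, CD40 and CD69 in myeloid cells.

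Cells were barcodes with at least 500 unique molecular identifiers (UMIs, which count single transcript molecules) and at least 100 genes. This gave 320 cells in KO and 1427 cells in WT, with 381305 and 1989011 UMIs in all and a median of 963.5 and 1065 UMIs per cell. No cell barcode was shared by the libraries. Levels are UMIs of a gene per 1000000 UMIs in the cells of its library (CPM), with 95% intervals that cover counting error only. With 1 library per genotype there was no replicate check, genotype and library cannot be told apart, and no p-value is given. Park7 itself had 1 UMI in KO and 323 UMIs in WT, a ratio of 0.0161 (0.000408 to 0.0906). Microglial markers summed to 41051 CPM in KO and 29865 CPM in WT, while defining markers of T or NK lymphocytes summed to 0 and 1.01 CPM and those of dendritic cells to 5.25 and 5.53 CPM. Only 2 of the 8 lymphocyte markers and 3 of the 7 dendritic cell markers were found in the matrices.

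Promoter sequence from RefSeq (GRCm38.p6) was held for 5 of the 10 genes, and the 250 bases before a transcription start are shown for the 3 of them whose level was lower in KO beyond counting error (as in 18.7% of the 9085 genes compared), so that their sequences can be read side by side. The first lies at chr19:29367188-29367437 (plus strand), the second at chr10:78069118-78069367 (plus strand) and the last, before 1 of 2 listed starts, at chr16:49855404-49855653 (plus strand). The Cd274 and Cd47 windows precede starts that lie inside the gene spans given below, downstream of the first base of each gene. Capitals mark a match to the NF-kB motif.
Cd274: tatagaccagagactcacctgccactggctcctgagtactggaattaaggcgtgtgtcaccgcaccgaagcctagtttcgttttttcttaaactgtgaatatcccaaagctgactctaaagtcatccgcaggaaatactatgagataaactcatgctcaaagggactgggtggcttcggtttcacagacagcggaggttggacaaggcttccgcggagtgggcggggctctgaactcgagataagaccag
Icosl: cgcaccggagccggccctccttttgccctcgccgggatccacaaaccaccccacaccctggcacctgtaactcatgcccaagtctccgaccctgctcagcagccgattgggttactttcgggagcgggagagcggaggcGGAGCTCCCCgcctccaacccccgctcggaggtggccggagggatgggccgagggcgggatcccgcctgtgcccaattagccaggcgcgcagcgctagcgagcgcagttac
Cd47: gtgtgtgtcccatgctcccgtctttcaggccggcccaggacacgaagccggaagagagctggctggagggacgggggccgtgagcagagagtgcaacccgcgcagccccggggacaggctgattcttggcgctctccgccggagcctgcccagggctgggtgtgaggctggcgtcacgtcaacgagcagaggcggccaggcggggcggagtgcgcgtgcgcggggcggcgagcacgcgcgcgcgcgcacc
The 3 motifs were searched on both strands, with overlapping matches allowed: the NF-kB motif by name, the interferon-gamma activated site TTCNNNGAA and the interferon-stimulated response element GAAANNGAAA. Among the promoters of the 5 genes (also Cd80 and Havcr2), the only match was the NF-kB motif in Icosl, 111 bases before the start. Of 32851 mouse promoter windows of the same length, 7.25% held the NF-kB motif, 7.02% the activated site and 2.98% the response element.

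Cd274, Cd40 and Cd69 had no UMI in KO, neither in cells nor in any of the 9999 barcodes. They are not listed in the KO matrix, which lists no gene without a UMI. Cd274 (chromosome 19, 29362107 to 29388095), the gene of the PD-1 ligand PD-L1, had 0 UMIs in KO and 78 UMIs in 68 cells of WT. Its level was 39.2 CPM (31.0 to 48.9) in WT, and at that level 15.0 UMIs would have been counted in KO. Against a floor of 3 counts (7.87 CPM in KO), Cd274 was at least 4.98-fold lower in KO. It overlaps Plgrkt on the other strand, and it is not known whether counting used the strand.

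Cd69 (chromosome 6, 129267324 to 129275375), a lectin that keeps activated leukocytes in tissue, had 0 UMIs in KO and 31 UMIs in 20 cells of WT, up to 5 in a cell. Its WT level was 15.6 CPM (10.6 to 22.1), with 5.94 UMIs to be counted in KO at that level, and it was at least 1.98-fold lower in KO. Cd40 (chromosome 2, 165055614 to 165071654), the receptor of the CD40 ligand, had 0 UMIs in KO and 10 UMIs in 10 cells of WT. At its WT level of 5.03 CPM (2.41 to 9.25) only 1.92 UMIs would have been counted in KO, so that a difference in Cd40 was not detectable at this depth.

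The 2 CD28-binding ligands did not differ beyond counting error on the CPM scale. Cd86 (chromosome 16, 36568956 to 36666158) had 96 UMIs in KO, or 252 CPM (204 to 307), and 550 UMIs in WT, or 277 CPM (254 to 301). The ratio of KO over WT was 0.910 (0.725 to 1.13). Cd80 (chromosome 16, 38457430 to 38495958) had 12 UMIs (31.5 CPM, 16.3 to 55.0) in KO and 50 UMIs (25.1 CPM, 18.7 to 33.1) in WT, and a ratio of 1.25 (0.607 to 2.38). The interval of Cd80 spans a lower as well as a higher level in KO by more than 1.5-fold, and the gene overlaps Timmdc1 on the other strand.

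Icosl (chromosome 10, 78069368 to 78079525), whose product binds ICOS on T lymphocytes, was lower in KO. It had 14 UMIs in KO (36.7 CPM, 20.1 to 61.6) and 143 UMIs in WT (71.9 CPM, 60.6 to 84.7), a ratio of 0.511 (0.272 to 0.885). Cd83 (chromosome 13, 43785112 to 43803133), which stabilises MHC class II and CD86 at the surface, had 17 UMIs in KO (44.6 CPM, 26.0 to 71.4) and 101 UMIs in WT (50.8 CPM, 41.4 to 61.7). Its ratio was 0.878 (0.492 to 1.48), and the levels of Cd83 overlapped.

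Havcr2 (chromosome 11, 46454931 to 46481255) had 171 UMIs in KO (448 CPM, 384 to 521) and 656 UMIs in WT (330 CPM, 305 to 356). The ratio of 1.36 (1.14 to 1.61) placed Havcr2 higher in KO, the direction opposite to Cd274, the other checkpoint gene of the list.

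The CD47 and SIRPα genes differed in opposite directions. Cd47 (chromosome 16, 49851328 to 49912503) had 86 UMIs in KO (226 CPM, 180 to 279) and 675 UMIs in WT (339 CPM, 314 to 366), a ratio of 0.665 (0.525 to 0.833). Sirpa (chromosome 2, 129591042 to 129632228) had 293 UMIs in KO (768 CPM, 683 to 862) and 568 UMIs in WT (286 CPM, 263 to 310). The Sirpa ratio of 2.69 (2.33 to 3.10) was the highest of the 10 genes. Sirpa has close relatives in the Sirpb genes, so that its counts may include theirs.

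**Figure D1:**
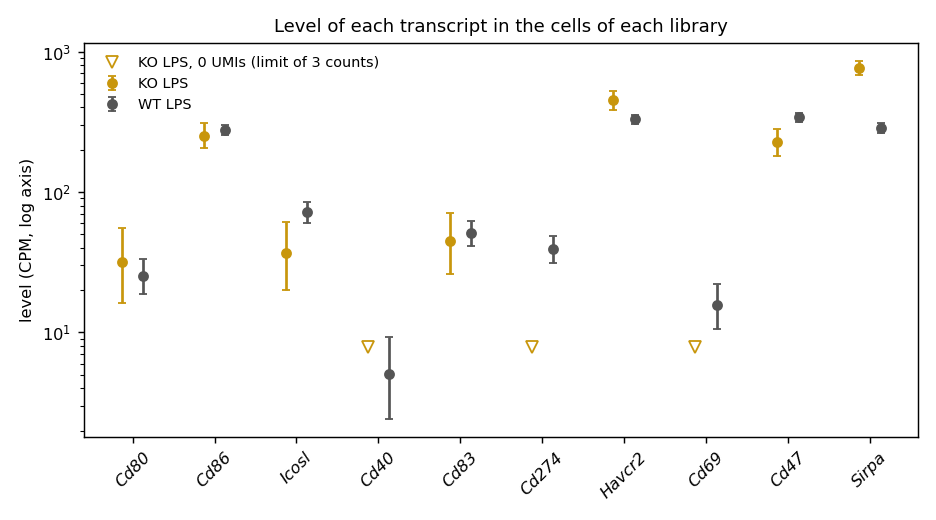
Level of each gene in CPM (log axis) in KO (yellow) and WT (grey). Points are UMIs summed over the cells, bars are exact 95% Poisson intervals, and open triangles mark genes with 0 UMIs in KO at the limit of 3 counts (7.87 CPM). Sirpa stands at 768 CPM in KO and 286 CPM in WT, and Cd274 and Cd69 in WT lie above the KO limit.

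Of the 10 genes, 9 had at least 20 UMIs over both libraries, and Cd40 did not. On the log2 scale with a prior count of 0.5, 2 of the 9 (Cd274 and Cd69) were lower in KO past 2-fold, against 15.3% of the 9085 genes with as many UMIs. The count of Cd69 rests on that prior, since its bound of 1.98-fold lies just under the threshold. Sirpa alone was higher past 2-fold, against 13.5% of all genes. Counting intervals of the ratio lay below 1 for 4 genes (Cd274, Cd69, Icosl and Cd47), where 18.7% of all genes did, and above 1 for 2 (Havcr2 and Sirpa), where 19.6% did. The 2 genes at 0 UMIs in KO, Cd274 and Cd69, compare with 1.55% of all genes. The median log2 ratio of the 9 genes was -0.15, held by Cd83, and that of all genes was 0.03.

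The scale mattered for Cd86, Havcr2 and Icosl. Scaling by the median ratio of the 1511 genes with at least 50 UMIs in each library lowered every log2 ratio by a shift of -0.31 and turned the split of all genes into 22.5% lower and 7.90% higher past 2-fold. On that scale the Cd86 ratio was 0.737 (0.587 to 0.917), below 1 beyond counting error, and the Havcr2 ratio was 1.10 (0.925 to 1.30), no longer above it. Icosl passed 2-fold at 0.413 (0.220 to 0.717), which made 3 genes lower past 2-fold. Sirpa stayed above 2-fold at 2.18 (1.89 to 2.51) and Cd47 was at 0.538 (0.425 to 0.674).

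**Figure D2:**
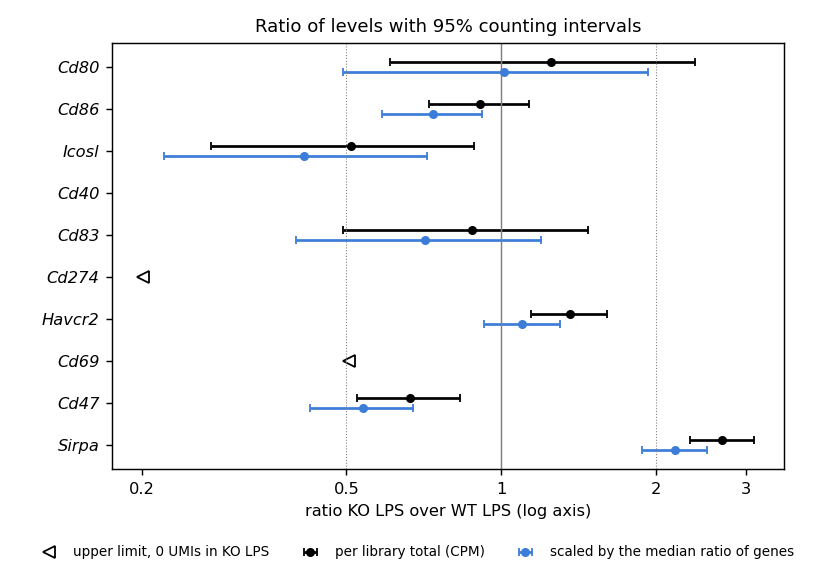
Ratio of KO over WT (log axis) for each gene, per library total (black) and on the scale of the median ratio of genes (blue), with 95% counting intervals. Open triangles are limits on the CPM scale for Cd274 and Cd69 from a floor of 3 counts in KO, without the counting error of WT. Dotted lines mark 2-fold, and Cd40 allows no limit below 1. Sirpa lies above 2 on both scales, at 2.69 and 2.18, and the interval of Havcr2 crosses 1 only on the blue scale.

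Shares of cells with a UMI were compared after each cell was thinned to 500 UMIs, and no cell was too shallow. At least 1 of the 10 genes was found in 61.2% of KO cells (55.7 to 66.6) and in 51.4% of WT cells (48.8 to 54.1). Sirpa was found in 35.0% of KO cells (29.8 to 40.5) and 13.8% of WT cells (12.1 to 15.7), a difference of 21.2 percentage points (15.6 to 27.0). Without thinning the Sirpa shares were 58.1% and 29.1%. Where a thinned cell had to hold 2 UMIs, the Sirpa difference was 5.72 points. Cd47 showed the opposite order, with 10% and 15.8% of cells and a difference of -5.77 points (-9.42 to -1.52).

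Havcr2 was found in 19.7% of KO cells and 13.8% of WT cells, 5.88 points apart (1.26 to 11.0). The shares of Cd86, 12.2% and 12.3%, differed by -0.15 points (-3.98 to 4.27). Cd274 was found in 0 of 320 cells of KO, which by the limit of 3 counts allows a share with a UMI of up to 0.938%, and in 1.61% of WT cells (1.02 to 2.41). The shares of Icosl (2.81% and 3.64%), Cd83 (1.56% and 2.31%), Cd80 (1.88% and 1.47%), Cd69 (0 and 0.981%) and Cd40 (0 and 0.350%) differed by amounts whose intervals span 0. Without thinning the shares in KO and WT were 33.8% and 31.1% for Havcr2, 21.6% and 30.3% for Cd47, 22.2% and 28.5% for Cd86, and 0 and 4.77% for Cd274.

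These shares come from 1 random draw per cell. The share expected under thinning, without a draw, differed between KO and WT by 19.7 points for Sirpa and -4.05 points for Cd47. For Havcr2 it differed by 3.76 points and for Cd86 by -1.59 points. Another draw gave 18.6, -3.22, 4.98 and -2.72 points for the 4 genes in this order.

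Free RNA in the droplets carried the same transcripts. A droplet of 500 UMIs drawn only from barcodes with 100 UMIs or fewer would hold a Sirpa UMI in 27.0% of cases in KO (23.0 to 31.3) and in 7.61% in WT (5.71 to 9.91). For Havcr2 this background was 18.0% in KO and 15.2% in WT, so that the WT share lay below it and the KO share inside its interval (14.6 to 21.9). The Havcr2 share in WT was thus not above background, and neither was that of Cd69 in WT (background 1.10%). Cells with 2 or more UMIs before thinning numbered 130 of the 444 with a Havcr2 UMI in WT and 6 of the 20 with a Cd69 UMI. The KO shares of Cd86 (background 10.03%) and Cd47 (8.89%) lay inside their background intervals, and so did those of Cd80 and Cd83. In WT the shares of Cd274 (background 1.10%, 0.445 to 2.26) and Cd80 lay inside theirs, while those of Cd86, Icosl, Cd47, Cd83 and Sirpa lay above. The KO shares of Sirpa and of Icosl (background 0.251%, 0.00637 to 1.39) also lay above their background intervals. The intervals of these 2 KO shares, 29.8 to 40.5 for Sirpa and 1.29 to 5.27 for Icosl, still overlapped those of the background. By these values the free RNA of the libraries differed in the same direction as the cells for Sirpa, Cd47 and Havcr2. With free RNA subtracted at an assumed 10% of the UMIs of the cells, the log2 ratio of Sirpa was 1.39 (1.43 without subtraction), that of Cd47 -0.59 (-0.58) and that of Havcr2 0.46 (0.45). The true share of free RNA in the cells was not estimated.

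Levels in cells were set against those of the free RNA. In WT the cell level exceeded the free level for Cd83 by 2.29-fold (1.07 to 5.84), for Icosl by 2.27-fold (1.20 to 4.84), for Sirpa by 1.80-fold (1.35 to 2.46), for Cd86 by 1.65-fold (1.24 to 2.23) and for Cd47 by 1.31-fold (1.04 to 1.66). The intervals of Cd274 (1.77, 0.819 to 4.54), Cd80 (1.98, 0.728 to 7.57), Havcr2 (1.00, 0.813 to 1.24) and Cd69 (0.703, 0.304 to 1.89) included 1. In KO only Icosl had an interval above 1, at 7.30 (1.11 to 309), and it rested on 1 UMI in the free RNA. Sirpa in KO stood at 1.22 (0.988 to 1.52).

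**Figure D3:**
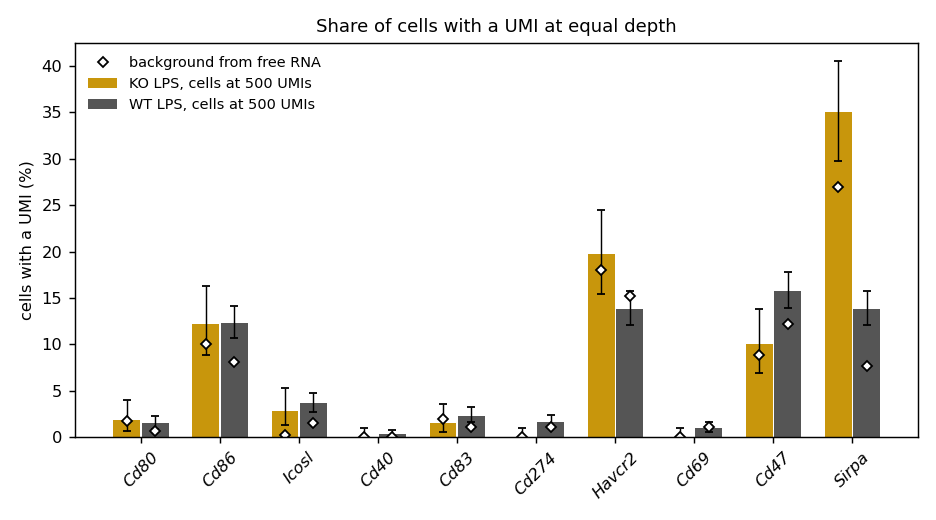
Share of cells with at least 1 UMI of each gene after thinning to 500 UMIs in KO (yellow, 320 cells) and WT (grey, 1427 cells), with exact 95% binomial intervals. Bars of 0 cells carry the limit of 3 counts, and diamonds mark the share expected from free RNA alone. Sirpa shows the widest gap between libraries, 35.0% against 13.8%, and its KO diamond stands at 27.0%.

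The differences were looked at again in cells of like depth. In cells with 500 to under 1000 UMIs the Sirpa ratio was 3.22 (2.49 to 4.18), in those with 1000 to under 2000 UMIs it was 2.77 (2.20 to 3.47) and in those with 2000 UMIs or more it was 1.99 (1.46 to 2.68). Sirpa in WT lay between 277 and 296 CPM in the 3 classes, whereas in KO it was 895, 774 and 590 CPM. The Cd47 ratio was 0.643, 0.752 and 0.515, below 1 in each class, although in the middle class its interval (0.524 to 1.05) reached 1. Havcr2 had ratios of 1.37, 1.54 and 1.09, and only the middle interval (1.18 to 2.00) excluded 1. Cd274 had 0 UMIs in KO in each class, against 19, 24 and 35 UMIs in WT. Icosl had ratios of 0.612, 0.497 and 0.433, and its interval reached 1 in each class. The interval of Cd69 did so too, with upper ends of 3.22, 2.07 and 2.25.

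**Figure D4:**
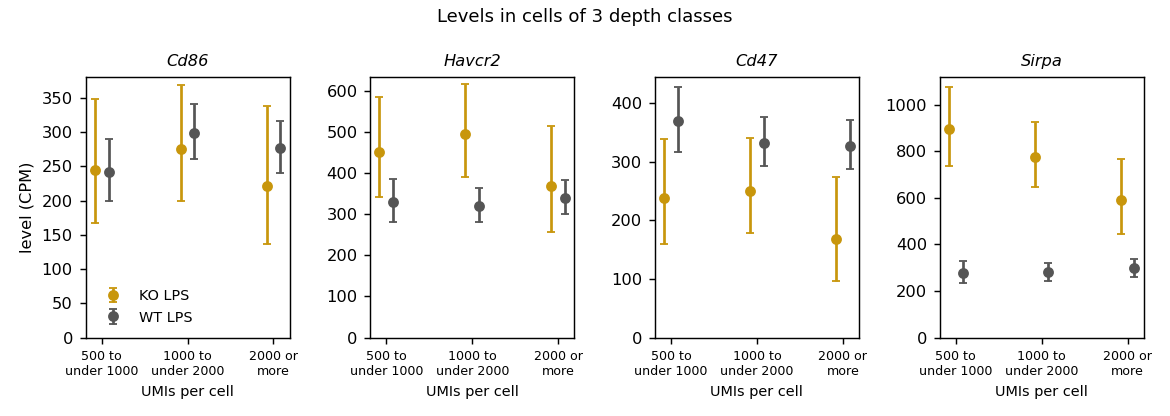
Levels of Cd86, Havcr2, Cd47 and Sirpa (CPM, axes from 0) in KO (yellow) and WT (grey) in cells of 3 depth classes, with exact 95% Poisson intervals. The Sirpa levels are apart in every class, 895 against 277 CPM in the shallowest and 590 against 296 CPM in the deepest, whereas those of Cd86 overlap.

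The 2 mice of a library can be told apart in part, since 1 was female and 1 male. Cells with an Xist UMI and no Y-linked UMI numbered 200 in KO (62.5%) and 565 in WT (39.6%), and cells with a Y-linked UMI and no Xist UMI numbered 12 (3.75%) and 195 (13.7%). UMIs of both kinds were held by 9 cells in KO (2.81%) and 80 cells in WT (5.61%, of 2199 median UMIs), so that the marks do not part the mice cleanly. The libraries thus differed in their mix of cells so marked. Among Xist-positive cells the Sirpa ratio was 2.79 (2.29 to 3.39), the Havcr2 ratio 1.49 (1.20 to 1.86) and the Cd47 ratio 0.574 (0.428 to 0.757). Cd274 had 0 UMIs in KO and 35 UMIs in WT there, at least 3.75-fold lower. Among Y-positive cells the Sirpa ratio was 1.07 (0.342 to 2.59), with 5 UMIs in KO against 99 in WT. In the 12 KO cells the floor was 208 CPM, so that differences in Cd274, Cd69 and Cd40 were not detectable. Cells without a UMI of either kind, 99 in KO and 587 in WT, gave a Sirpa ratio of 3.11 (2.37 to 4.04).

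Within a library, cells were split in terciles by the share of their UMIs that came from another gene list, which held none of the 10 genes. Cells of 1 library are not replicates, and the intervals again cover counting error only. In WT the inflammatory response list separated 476 cells with a median share of 0.401% from 476 cells with 2.08%, of 900 and 1210 median UMIs. Cd69 had 0 UMIs in the lowest tercile and 28 in the highest (37.7 CPM, 25.1 to 54.5), at least 6.85-fold higher. Cd40 had 0 and 7 UMIs. Cd47 was at 228 CPM in the lowest and 403 CPM in the highest tercile, a ratio of 1.77 (1.43 to 2.20). Icosl (49.5 and 87.5 CPM, ratio 1.77, 1.11 to 2.88) and Cd83 (36.7 and 71.4 CPM, ratio 1.94, 1.14 to 3.43) were also higher in inflammatory WT cells. Havcr2 was lower in them (369 and 292 CPM, ratio 0.792, 0.651 to 0.965), while Cd86 (1.05, 0.847 to 1.32), Sirpa (0.917, 0.739 to 1.14) and Cd274 (1.76, 0.941 to 3.46) did not differ beyond counting error. Of the cells in WT, 135 lay within 10% of the lower boundary and 144 within 10% of the upper one.

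By the type I interferon list, Cd47 was higher in the highest tercile of WT cells (ratio 1.43, 1.17 to 1.74) and so was Cd69 (2.48, 1.01 to 6.94), whereas Cd83 was lower (0.543, 0.315 to 0.917). By the homeostatic list, Cd86 was higher in the highest tercile of WT cells, at 303 CPM against 192 CPM (ratio 1.58, 1.24 to 2.02), and Sirpa was at 303 and 251 CPM (1.21, 0.969 to 1.51). In KO the homeostatic split gave 963 CPM of Sirpa in the highest tercile and 646 CPM in the lowest, a ratio of 1.49 (1.10 to 2.02). The homeostatic split was less clear than the inflammatory one: 67 and 103 of the 320 KO cells, and 246 and 333 of the 1427 WT cells, lay within 10% of its boundaries. The other KO values overlapped, among them Cd47 at 187 and 315 CPM (0.596, 0.334 to 1.04). The inflammatory and interferon lists could not split the KO cells in terciles because too many cells had equal shares.

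**Figure D5:**
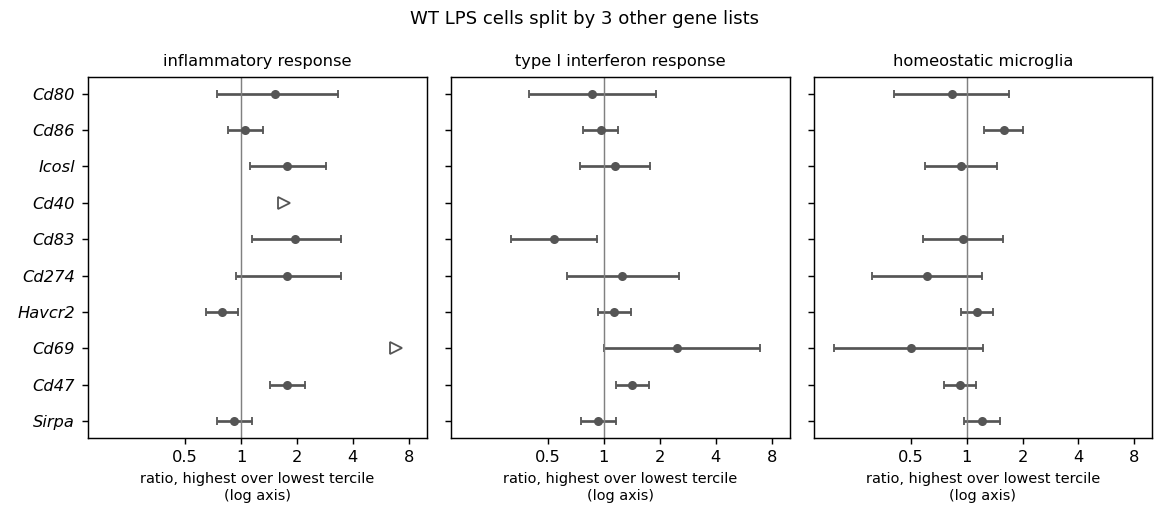
Ratio of the level in the highest over the lowest tercile of WT cells (log axis), the cells being ranked by the share of UMIs from the list named above each panel. Bars are 95% counting intervals. Open triangles are limits from a floor of 3 counts for genes with 0 UMIs in the lowest tercile, without the counting error of the highest. Genes with 3 or fewer UMIs in a tercile and no such limit are left out. Cd69 (6.85 against the floor) and Cd47 (1.77) lie above 1 in the inflammatory panel and Cd86 (1.58) in the homeostatic panel.

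The 20 WT cells with a Cd69 UMI, of 1535 median UMIs against 1059, carried more inflammatory transcripts than the others. They held 41926 CPM of the inflammatory response list, against 13861 CPM in the other cells, and 5923 CPM of the interferon list, against 2237 CPM. Microglial markers were as high in Cd69-positive cells as in the others (30844 and 29847 CPM), T or NK lymphocyte markers were at 0 UMIs, and granule or calprotectin transcripts of neutrophils came to 1 UMI. The 68 cells with a Cd274 UMI differed less, with 15152 and 14301 CPM of the inflammatory list and 2570 and 2278 CPM of the interferon list. Cells with a Cd274 UMI were deeper, with a median of 1744 UMIs against 1047.

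Between the libraries the lists used for the splits differed widely. Of the inflammatory response genes with at least 20 UMIs, 23 of 25 were lower in KO past 2-fold, as were 20 of 21 interferon response genes, and 11 of 15 homeostatic genes were higher, beside 15.3% lower and 13.5% higher of all genes compared. The lists include genes picked on these same libraries and are no independent evidence of direction. Markers of other cell types were summed as well. Choroid plexus markers came to 1883 CPM in KO and 11.1 CPM in WT, of which 1 KO cell held 652 UMIs, and the neutrophil markers to 430 and 261 CPM. In that neutrophil sum Csf3r, a colony-stimulating factor receptor, had 164 and 384 UMIs, a ratio of 2.23, while the calprotectin gene S100a8 had 0 and 81 UMIs. Summed markers of monocytes, border macrophages, B lymphocytes, oligodendrocytes, endothelial cells and neurons lay between 23.6 and 99.7 CPM in KO and between 8.55 and 58.3 CPM in WT, and those of astrocytes at 370 and 173 CPM. Without the cells that held choroid plexus or neutrophil granule UMIs, the 10 ratios moved within their counting intervals. The part of the other cell types in the results was not tested.

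Other genes of the same pathways were read from lists grouped by role. A list of other costimulatory ligands also held checkpoint ligands, Vsir among them. Of its 8 genes with at least 20 UMIs, 3 were lower in KO past 2-fold (Tnfsf13b, Cd48 and Icam1), 1 was higher (Vsir) and 4 were neither. Of all genes compared, 15.3% were lower and 13.5% higher. The median log2 ratio was -0.19 for the 8 genes and 0.03 for all genes. Vsir, the gene of the checkpoint ligand VISTA, listed under an older symbol, was at 1298 CPM in KO and 485 CPM in WT, a ratio of 2.68 (2.40 to 2.99) that lay close to that of Sirpa. Tnfsf13b, the gene of the B lymphocyte survival factor BAFF, was at 10.5 and 33.2 CPM, a ratio of 0.316 (0.0837 to 0.848).

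A further list held inhibitory receptors of myeloid cells and some relatives that are not known as inhibitory, among them Lilra5 and Gp49a. Of 16 with at least 20 UMIs, 10 were lower in KO past 2-fold, 2 were higher and 4 were neither, with a median log2 ratio of -1.45, again beside 15.3% and 13.5% of all genes. On the median-ratio scale 10 were lower and 1 was higher, beside 22.5% and 7.90%. Among the 4, Cd33 (1.95, 1.44 to 2.61) and Ceacam1 (1.82, 1.16 to 2.79), chosen after their values were seen, had intervals above 1 on the CPM scale. Cd72, a lectin-like inhibitory receptor, had 0 UMIs in KO and 392 UMIs in WT, at least 25.0-fold lower. The 2 higher genes were Cd300a, with 142 and 45.2 CPM (ratio 3.13), and the collagen receptor Lair1, with 1041 and 491 CPM (ratio 2.12).

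Receptors on the lymphocyte side were nearly absent. Of the 10 found in the matrices, 7 had 0 UMIs in KO and 1 had at least 20 UMIs: Lag3, an MHC class II receptor, with 40 UMIs in each library and hence 105 and 20.1 CPM, a ratio of 5.22 (3.28 to 8.30). Among 20 signalling and turnover partners, 1 was lower past 2-fold (15.3% of all genes), 5 were higher (13.5% of all genes) and 14 were neither. On the median-ratio scale 5 were lower and 3 were higher, beside 22.5% and 7.90% of all genes. Traf3, which restrains CD40 signalling, had a ratio of 0.234 (0.0470 to 0.713) from 3 KO UMIs, Cmtm6, which protects PD-L1 from degradation, had a ratio of 2.13, and the adaptor Fyb, the most abundant of them, had 0.614. Cmtm6 and Cd274, whose products act together, thus differed in opposite directions.

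Of 15 transcriptional regulators, 4 were lower past 2-fold (15.3% of all genes), 1 was higher (13.5% of all genes) and 10 were neither. On the median-ratio scale 5 were lower and 0 were higher, against 22.5% and 7.90% of all genes. Nfkb2, the non-canonical NF-kB subunit downstream of CD40, had 2 UMIs in KO and 60 in WT, a ratio of 0.174 (0.0206 to 0.656), while the dendritic cell regulator Batf3 was at 2.40 and the immediate early gene Jun at 1.09.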

How the data were processed

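The authors deposited raw counts of UMIs per gene and barcode, 1 matrix per library with 9999 barcodes each, not filtered to cells (684738 UMIs in KO and 3063795 in WT). Per the labels, the submitters' processing notes name bcl2fastq 2.0, STAR and the builds mm9 and mm10 without their roles; the counting program, its annotation and its use of strand are not given in the sources used here. Genes missing from 1 matrix (5616 in KO, 3036 in WT) were read as 0. Cells had at least 500 UMIs and 100 genes. The study called cells with DropletUtils, a rule that was not used here, and analysed more cells of each genotype. The gap in cell number was wider for KO than for WT. Doublets were left in.

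UMIs were summed per library and given as CPM with exact Poisson intervals, exact conditional binomial intervals for ratios and Clopper-Pearson intervals for shares (95%). Log2 ratios used a prior count of 0.5, and a gene was counted where both libraries together held 20 UMIs or more. Cells were thinned to 500 UMIs for shares, and free RNA was read from barcodes with no more than 100 UMIs. The 10 genes, the lists and the comparisons were chosen with earlier results of these data known. In each companion list, the highest and lowest log2 ratio and the most abundant gene among those with at least 50 UMIs were named. Cd48, Icam1, Cd33, Ceacam1, Lilra5 and Gp49a were named after their values were seen. Older symbols and gene positions came from RefSeq (GRCm38.p6), gene overlaps from GENCODE. The calculations, written with numpy 2.4.6, pandas 2.3.3 and scipy 1.17.1 for Python 3.11.15, were tested on simulated data. No test between genotypes was made, since cells of 1 library are not replicates.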

Additional observations from a re-analysis of the deposited data

Results flagged for a closer look

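The barcodes that were not analysed as cells were looked at as well. They fell short of 500 UMIs or 100 genes and may include cells that another rule of cell calling would keep. They also include the barcodes with 100 UMIs or fewer that were read as free RNA. Those held 198723 of the 303433 UMIs in KO and 315748 of the 1074784 UMIs in WT. The mix of these barcodes thus differed between the libraries. In them Sirpa had 213 UMIs in KO and 218 UMIs in WT, or 702 and 203 CPM, a ratio of 3.46 (2.85 to 4.20). Cd86 had 65 UMIs in KO and 162 UMIs in WT, or 214 and 151 CPM, a ratio of 1.42 (1.05 to 1.91), whereas its ratio in cells was 0.910. Of these UMIs, the free RNA barcodes held 42 in KO and 53 in WT for Cd86, and 125 and 50 for Sirpa. The difference between the Cd86 ratios was not tested. Havcr2 in these barcodes was at 415 and 349 CPM (1.19, 0.965 to 1.46) and Cd47 at 168 and 279 CPM (0.602, 0.438 to 0.812).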

How the results depend on the processing

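No paired analysis was possible because each genotype had 1 library, and for the same reason no replicate could be left out. The median log2 ratio and the counts of genes past 2-fold took 42 values under other settings, of which 39 stayed within counting error or 1.5 times the main count. In Xist-positive cells 1 gene instead of 2 was lower past 2-fold, since Cd69 fell under 20 UMIs there. In Y-positive cells, with 12 cells in KO, 0 were lower and 0 were higher, and the log2 ratio of Cd69 changed sign to 0.019, a value set by the prior count at 0 UMIs in KO against 10. Cd40 had no UMI in Y-positive cells and no value there. Of 129 log2 ratios of single genes under other settings, 122 stayed within the counting interval. The median ranged from -0.46 (scaling by the median ratio) to 0.23 (Y-positive cells). The Sirpa log2 ratio ranged from 0.23 in Y-positive cells to 1.52. Of 50 differences of shares, 40 stayed within their interval. The Sirpa difference of 21.2 points was 28.4 with cells thinned to 1000 UMIs, 29.0 without thinning and 5.72 where a cell had to hold 2 UMIs, and the Cd274 difference of -1.61 was -3.12, -4.77 and -0.070. The Icosl difference of -0.83 was -3.48 at 1000 UMIs and -4.31 without thinning, and the Cd86 difference of -0.15 was -6.33 without thinning. The Cd83 difference was 3.80 points with cells thinned to 1000 UMIs (148 and 770 cells) and -0.75 at 500 UMIs. Removing cells with choroid plexus or neutrophil granule UMIs was chosen after seeing the data. Depth in KO limits what can be said of Cd40, Cd69 and Cd80.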
